A study of Mus musculus with 8 samples.

Results

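Livers of mice that carried a human LXRα transgene were compared with livers of mice that carried GFP, both after injection of the LXR agonist T0901317, to measure what extra receptor adds once the receptor is activated. The comparison took the 4 arrays whose titles name T0901317, 2 with LXRα and 2 with GFP, out of 8 arrays in the study. The other 4 arrays came from LXRα and GFP livers given vehicle and served to compare the transgene difference with and without agonist. RNA came from whole liver, with 1 array per sample.

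All 8 mice were null for the low density lipoprotein receptor, on the C57B6 background, and had been fed a Western diet for 12 weeks. Both transgenes were delivered at 10 weeks of age by adeno-associated virus (AAV2.8) and expressed from the human thyroxine binding globulin promoter, which is active in hepatocytes. The mice were 8 months old at the experiment. T0901317 was given at 5 mg/kg intraperitoneally for 3 days, and the control mice for the agonist received vehicle. Every group, the GFP controls included, therefore lacked the receptor that clears LDL, kept the endogenous mouse LXR genes and carried the virus. The sex of the mice is not stated in the labels. P-values measure the spread between these samples, pooled over all 8 arrays. The vehicle arrays therefore enter the standard errors and p-values of the T0901317 comparison. With 2 arrays against 2 the smallest p an exact permutation test could give was 0.333.

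LXRα, encoded by Nr1h3, and LXRβ, encoded by Nr1h2, are nuclear receptors that bind oxysterols and act on DNA as heterodimers with the retinoid X receptor. In liver they are known for raising cholesterol efflux and excretion through ABC transporters, bile acid synthesis in mice through Cyp7a1, and fatty acid synthesis through Srebf1, Scd1 and Fasn. LXR agonists are also known to dampen inflammatory and acute-phase genes. T0901317 binds both LXRs and also the pregnane X receptor, and it causes fat to accumulate in mouse liver.

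LXR binds a direct repeat of a nuclear receptor half-site with a gap of 4 bases between the copies. The form GGTTACNNNNGGTCA, on either strand, was searched in RefSeq promoters (GRCm38.p6, 250 bases before to 50 after a gene's start). Its N positions are not this gap, because the C before them belongs to the gap and the last N to the second copy. The form was found in 12 of 32851 promoters (0.0365%). It was in 3 of the 15 LXR target genes that had a RefSeq promoter, Abca1, Srebf1 and Fasn. The consensus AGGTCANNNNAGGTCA was in 5 promoters (0.0152%), none of them of the target list. These 3 promoters are shown because their genes, a cholesterol exporter, a lipogenic transcription factor and a fatty acid synthase, stand for the receptor's direct arms in liver. The letters are 5′ to 3′ in the direction of the gene, and the capitals mark the motif, which lies on the opposite strand in each. It begins 67 bases before the start in Abca1 (chr4:53159846-53160145, minus strand), 182 before in Srebf1 (chr11:60210422-60210721, minus strand) and 225 before in Fasn (chr11:120824498-120824797, minus strand). This form of the motif was chosen after the promoters had been searched, and a match describes the letters only and is no measured binding.
Abca1: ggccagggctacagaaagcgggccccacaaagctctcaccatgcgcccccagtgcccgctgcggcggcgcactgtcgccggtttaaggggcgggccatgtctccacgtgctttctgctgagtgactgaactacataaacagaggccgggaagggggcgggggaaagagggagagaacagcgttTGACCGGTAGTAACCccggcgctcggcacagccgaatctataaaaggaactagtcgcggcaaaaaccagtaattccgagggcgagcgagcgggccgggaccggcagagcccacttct
Srebf1: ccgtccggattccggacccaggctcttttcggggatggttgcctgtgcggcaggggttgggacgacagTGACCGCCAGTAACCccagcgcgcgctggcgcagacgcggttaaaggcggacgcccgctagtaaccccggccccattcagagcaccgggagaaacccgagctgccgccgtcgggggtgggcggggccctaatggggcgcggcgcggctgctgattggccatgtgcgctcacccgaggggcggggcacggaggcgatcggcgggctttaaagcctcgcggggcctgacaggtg
Fasn: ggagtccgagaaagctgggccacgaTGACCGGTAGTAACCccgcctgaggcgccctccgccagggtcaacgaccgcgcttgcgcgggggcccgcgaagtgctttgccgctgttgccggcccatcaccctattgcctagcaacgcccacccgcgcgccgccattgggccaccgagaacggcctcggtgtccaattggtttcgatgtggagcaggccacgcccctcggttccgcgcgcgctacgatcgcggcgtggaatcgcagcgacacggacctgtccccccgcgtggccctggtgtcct

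The arrays of the LXRα T0901317 group differed from each other more than from the GFP arrays. Their log2 intensities correlated at a Pearson r of 0.949 across probe sets, with a median absolute difference of 0.325 on the log2 scale, against 0.978 and 0.220 for the GFP T0901317 pair. Across the groups the closest arrays were those of the same replicate number, with median absolute differences of 0.206 for replicates 1 and 0.207 for replicates 2. The 3'/5' signal ratio of β-actin grows as signal from a transcript's 5' end falls. It was 2.75 on LXRα T0901317 replicate 1 and 36.3 on replicate 2. The GFP T0901317 arrays gave 7.56 and 11.04, and the vehicle arrays 2.08 to 3.08. Gapdh gave 1.27 and 19.7 on the LXRα arrays against 2.92 and 5.12 on the GFP arrays. The pyruvate carboxylase control gave 26.4 and 51.9 on the LXRα arrays, 53.0 and 60.5 on the GFP arrays and 4.75 to 11.2 on the vehicle arrays. By that control all 4 T0901317 arrays lay above all vehicle arrays. For the bacterial control Dap the LXRα arrays gave 1.57 and 7.66, the GFP arrays 2.22 and 4.18 and the vehicle arrays 0.925 to 1.31. Thr, another bacterial control, gave 2.09 and 5.60, 2.40 and 2.37, and 1.02 to 1.44 in that order. The 3' probe set of 18S RNA read 13.4 to 76.3 on the T0901317 arrays and 262 to 513 on the vehicle arrays. The source of these differences was not tested. Hepatocyte markers were present on all arrays: of 15 listed, 11 had a probe set, and none of these was at the intensity floor of 7.50. GFP T0901317 replicate 2 also held skeletal muscle transcripts, with a summed intensity of 625 over 16 genes against 155 to 194 on the other arrays. The macrophage receptor gene Marco read 1303 there, against 20.5 on the other GFP T0901317 array and 45.3 and 41.7 on the LXRα T0901317 arrays. GFP vehicle replicate 2 held pancreatic enzyme transcripts, with a sum of 42604 over 15 genes against 275 to 443 elsewhere. These lists of muscle and pancreas genes were chosen after the values were seen. In whole liver, fewer cells of a type and less RNA per cell cannot be told apart.

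No probe set differed between LXRα and GFP livers under T0901317 at an adjusted p under 0.05 in limma (0 of 15838, 0%), and the adjusted p of every probe set was 1. At an unadjusted p under 0.05 there were 355 probe sets, 137 higher and 218 lower with LXRα, where 5% of those tested would be 792. The log2 difference exceeded 1 in either direction for 186 probe sets. The median standard error (SE) was 0.248, so that a typical 95% interval spanned 0.588 on either side of a log2 difference before any adjustment, and a call after adjustment needed a larger difference. Over the 9359 genes, each read by its brightest tested probe set, 74 were higher at an unadjusted p under 0.05 (0.791%) and 120 lower (1.28%). The groups did not overlap, with both LXRα arrays above both GFP arrays, for 1010 genes (10.8%), and with both below for 869 (9.29%). Of all genes 5227 had a higher mean with LXRα and 4132 a lower one. With 1 T0901317 array left out, between 4015 (without LXRα replicate 2) and 5539 (without LXRα replicate 1) were higher. Counts of list members given below read against these values. Of the probe sets, 912 lay more than 1 log2 unit from the GFP mean on LXRα replicate 1 and 516 on replicate 2. They shared 61 with the same sign and 143 with opposite signs, so the transgene arrays moved apart from each other more often than together.

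Among genes with an unadjusted p under 0.01 and separate groups, those with higher values were of diverse function. The highest value over all genes, each read by its brightest probe set, was the 1.88 (SE 1.29) of the glutathione transferase Gsta2, whose GFP arrays read 1533 and 236 against 2511 and 1953. Cyp2c55, a cytochrome P450 known to be induced through the pregnane X receptor and CAR, read 21.4 and 6.73 in GFP livers and 39.7 and 43.8 in LXRα livers, a log2 difference of 1.72 (SE 0.42, unadjusted p = 0.00461). Both LXRα arrays lay above both GFP arrays, and GFP replicate 2 was below the floor of 7.50. Without GFP T0901317 replicate 1, the GFP array above the floor, the difference was 2.48 with a limma adjusted p of 0.00568, in a fit that takes the spread of the lone GFP array from the other groups. Mast2, a microtubule-associated kinase, read 13.5 and 13.3 against 28.1 and 27.2 (log2 difference 1.05, SE 0.16), and here replicates agreed closely within each group. Synpo, an actin-binding protein, was higher by 0.87 and Defb1, an antimicrobial defensin, by 0.80. The other genes with separate groups and a limma unadjusted p under 0.01 were Prkra (0.70), Aspscr1 (0.67), Dact1 (0.66), Mia2 (0.60), Cenpa (0.55), Tmem50b (0.54) and Pigf (0.51), and all 11 genes read below 100 on every T0901317 array.

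Afp, the fetal liver protein alpha-fetoprotein, was picked out after its values were seen. One of its 4 tested probe sets read 11.1 and 10.5 in GFP livers and 120 and 52.7 in LXRα livers, a log2 difference of 2.89 (SE 0.34, unadjusted p = 6.4e-05, limma adjusted p = 1). Both LXRα arrays lay far above both GFP arrays and above all vehicle arrays, which read 10.3 to 11.2. A pair of x_at probe sets gave 0.88 and 0.74. The brightest probe set, which stood for Afp among the genes, gave -0.15 with groups that overlapped (17.4 and 46.1 against 18.5 and 35.2). The probe sets of Afp therefore disagree. When the β-actin ratio entered the fit, the first probe set had a limma adjusted p of 0.00267; without LXRα T0901317 replicate 1 it was 0.0170, and without replicate 2 it was 0.00241. Each of the latter fits leaves 1 LXRα array, whose spread is taken from the other groups.

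The genes that were lower included transport and adhesion proteins of hepatocytes. Slc22a7, an organic anion transporter of the hepatocyte, read 60.4 and 167 in GFP livers and 16.5 and 22.6 in LXRα livers, a log2 difference of -2.38 (SE 0.61, unadjusted p = 0.00582). Cdh2, the N-cadherin of hepatocyte junctions, read 1193 and 1106 against 398 and 654 (-1.17, SE 0.31), and a second probe set gave -0.71. Errfi1, a feedback inhibitor of the EGF receptor, read 5323 and 6419 against 2552 and 3211 (-1.03, SE 0.21), and its second probe set gave -1.37. In each of these the LXRα arrays lay below the GFP arrays without overlap. Under the same rule of p under 0.01 and separate groups, the next lower values were those of Clstn3 (-1.20), Celsr1 (-1.14), Csf2rb2 (-1.12), Sdr42e1 (-1.11), Carmil1 (-1.09), Slc45a3 (-1.08), Naip5 (-0.92) and Ndst2 (-0.91). Zfp955b was lower by -1.30 on its brightest probe set and higher by 0.33 on another. In all, 18 genes met this rule on the lower side, and genes outside it with lower values, such as Saa2, are given with their lists.

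The LXR targets themselves differed little between the transgenes once agonist was present. Of 21 listed genes 20 were measured, of which 16 had a higher mean with LXRα and 4 a lower one. None had an unadjusted p under 0.05, the groups did not overlap for 5 on the higher and 1 on the lower side, and the median log2 difference was 0.21, beside 0.02 over all genes. The list's largest value in size, -0.51, was that of Mlxipl. Without GFP T0901317 replicate 2 the counts were 14 higher and 6 lower (median 0.12), without LXRα T0901317 replicate 1 they were 15 and 5 (median 0.12), and without LXRα T0901317 replicate 2 they were 13 and 7 (median 0.19).

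Among the receptors, mouse Nr1h3 read 75.8 and 98.0 in GFP livers and 163 and 62.6 in LXRα livers, a log2 difference of 0.23 (SE 0.45). The LXRα arrays lay on either side of the GFP arrays. No probe set is known to read the human transgene, so these arrays give no check of its expression. Nr1h2 was not analysed here. The partner receptor Rxra differed by -0.46 (SE 0.38), with 386 and 470 against 458 and 210. The bile acid receptor Nr1h4 differed by -0.04, its target repressor Nr0b2 by 0.03, Hnf4a by -0.03 and Ppara by 0.27. Nr1i2, the pregnane X receptor, read 28.0 and 27.0 against 38.6 and 28.2 (0.26, SE 0.19).

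Of the exporters, Abca1, which loads cholesterol onto apolipoprotein A-I, read 2047 and 1718 in GFP livers and 1539 and 1861 in LXRα livers, a log2 difference of -0.15 (SE 0.26). On this probe set the vehicle arrays read 747 to 1040, so all 4 agonist arrays lay above them whichever transgene they carried. Dimmer probe sets of Abca1 gave -0.65 and 1.25, with overlap, and did not show the agonist arrays above vehicle. The first read 97.5 and 49.3 with GFP and 259 and 6.30 with LXRα under T0901317, against 127 to 194 under vehicle. The second read 51.0 and 13.7, and 195 and 20.3, against 97.2 to 209. Abcg5, one of the pair that secretes sterols into bile, read 1710 and 1410 against 2278 and 1652 (0.32, SE 0.35), and its partner Abcg8 386 and 325 against 497 and 377 (0.29, SE 0.28). For both, the lower LXRα array fell within the GFP range. Abcg1 differed by 0.04 (SE 0.23) and Abcb4, the phosphatidylcholine exporter, by 0.31 (SE 0.38).

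The lipogenic targets gave the same picture of small differences. Srebf1, the SREBP-1 gene, read 3061 and 4037 against 2273 and 4592 (-0.12, SE 0.49), and Fasn 1945 and 3585 against 2806 and 2892 (0.11, SE 0.56). Scd1, the stearoyl-CoA desaturase, read 18774 and 18369 against 20980 and 21232. On this probe set its groups did not overlap, and the difference was 0.18 (SE 0.17, unadjusted p = 0.303). A second Scd1 probe set read 2534 and 2233 against 5456 and 1916 (0.44, SE 0.50), with overlap. Mlxipl, encoding the carbohydrate-responsive factor ChREBP, read 699 and 659 against 566 and 403 (-0.51, SE 0.32) and was the target on which both LXRα arrays lay below both GFP arrays. Lpcat3, a phospholipid-remodelling acyltransferase, read 555 and 522 against 911 and 620 (0.48, SE 0.35). Over 24 measured genes of fatty acid synthesis, 15 were higher and 9 lower, with a median of 0.13 that was -0.04 without GFP T0901317 replicate 1 and 0.25 without replicate 2.

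Among targets of lipoprotein metabolism, Lpl, a lipase of triglyceride-rich particles, read 1987 and 1728 against 2777 and 2313 (0.45, SE 0.58). Pltp, a phospholipid transfer protein, read 3358 and 3604 against 3869 and 4880 (0.32, SE 0.31). On these probe sets both were separate between the groups, by less than their SE or about as much. A second probe set gave 0.91 for Lpl, also separate, and 0.20 for Pltp, with overlap (642 and 731 against 1032 and 597). Apoe differed by 0.12, Apoc2 by 0.30 and Mylip, the ligase that degrades LDL receptor family members, by 0.32. Rnf145, a ubiquitin ligase of the sterol response, read 297 and 357 against 482 and 386 (0.41, SE 0.24). Cyp7a1, which catalyses the first step of the classical bile acid pathway, read 713 and 543 against 412 and 671 (-0.24, SE 0.30), with overlap. The remaining members, Aebp1 (0.04) and Smpdl3a (0.20), overlapped too.

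**Figure D1:**
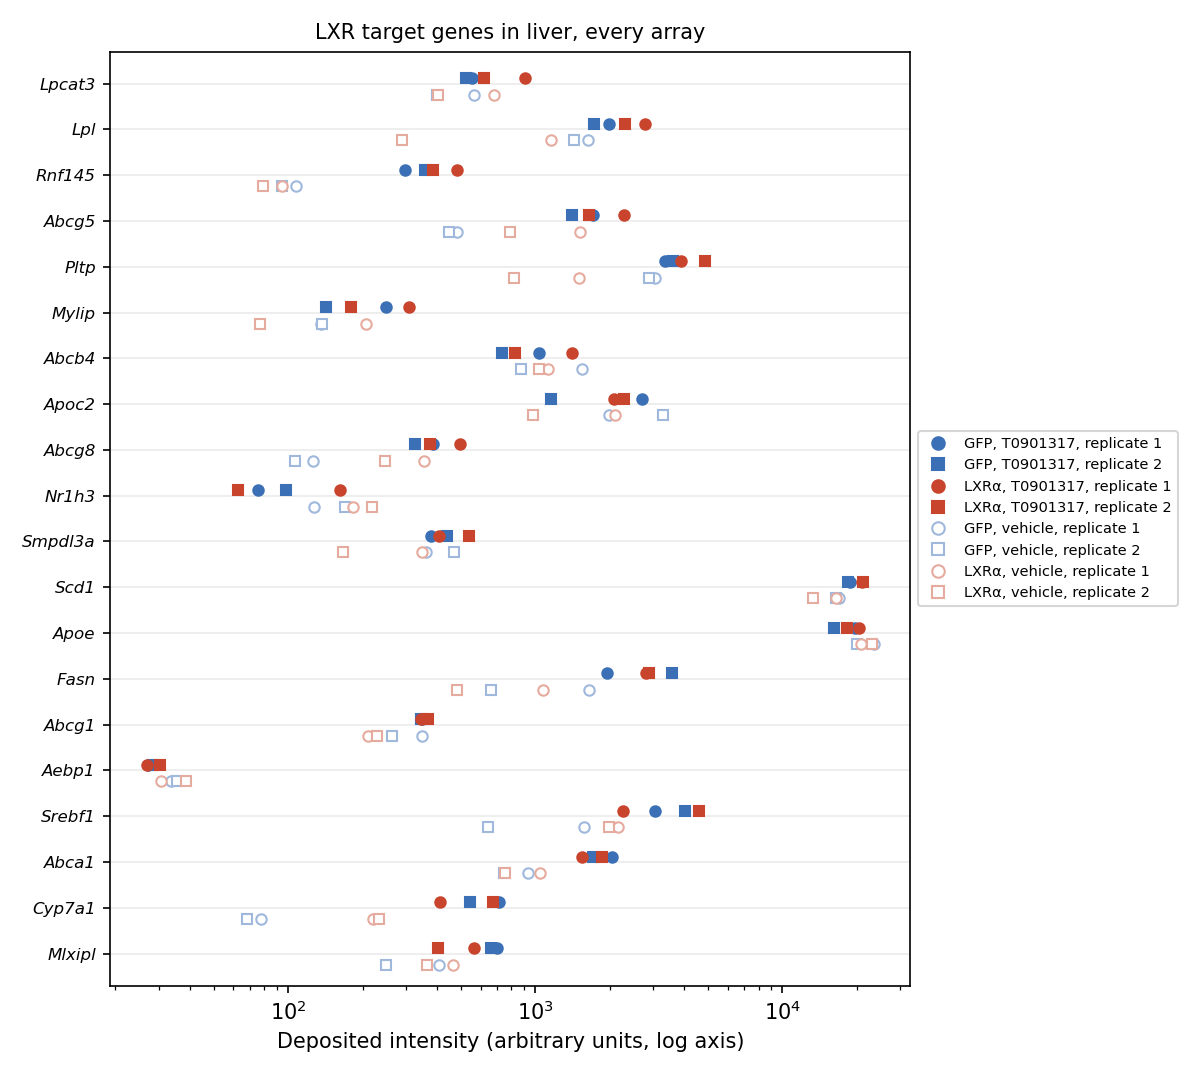
Deposited intensity (arbitrary units, log axis) of the 20 measured LXR target genes on every array, ordered by the log2 difference between LXRα and GFP under T0901317. Filled points are T0901317 arrays and open points vehicle arrays, blue for GFP and red for LXRα, with circles for replicate 1 and squares for replicate 2; the filled red and blue points lie close to each other for most genes, as for Abca1 (1539 and 1861 against 2047 and 1718).

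Over 25 lists of liver pathways and 7 of cell type markers, the medians ran from -0.70 for acute-phase genes to 0.36 for PPARα targets. Lists for acute-phase, complement and coagulation, glucose, amino acid and growth hormone dependent genes had medians below -0.2. Lists for PPARα targets, interferon, glutathione, cell cycle, LXR target and lipid droplet genes and for matrix markers had medians of 0.2 or above. The single LXRα arrays could differ: relative to the GFP mean, interferon genes had medians of 0.88 on replicate 1 and 0.19 on replicate 2, antigen presentation genes 0.34 and -0.24, and amino acid enzymes 0.00 and -0.56. No member of any list had a limma adjusted p under 0.05.

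**Figure D2:**
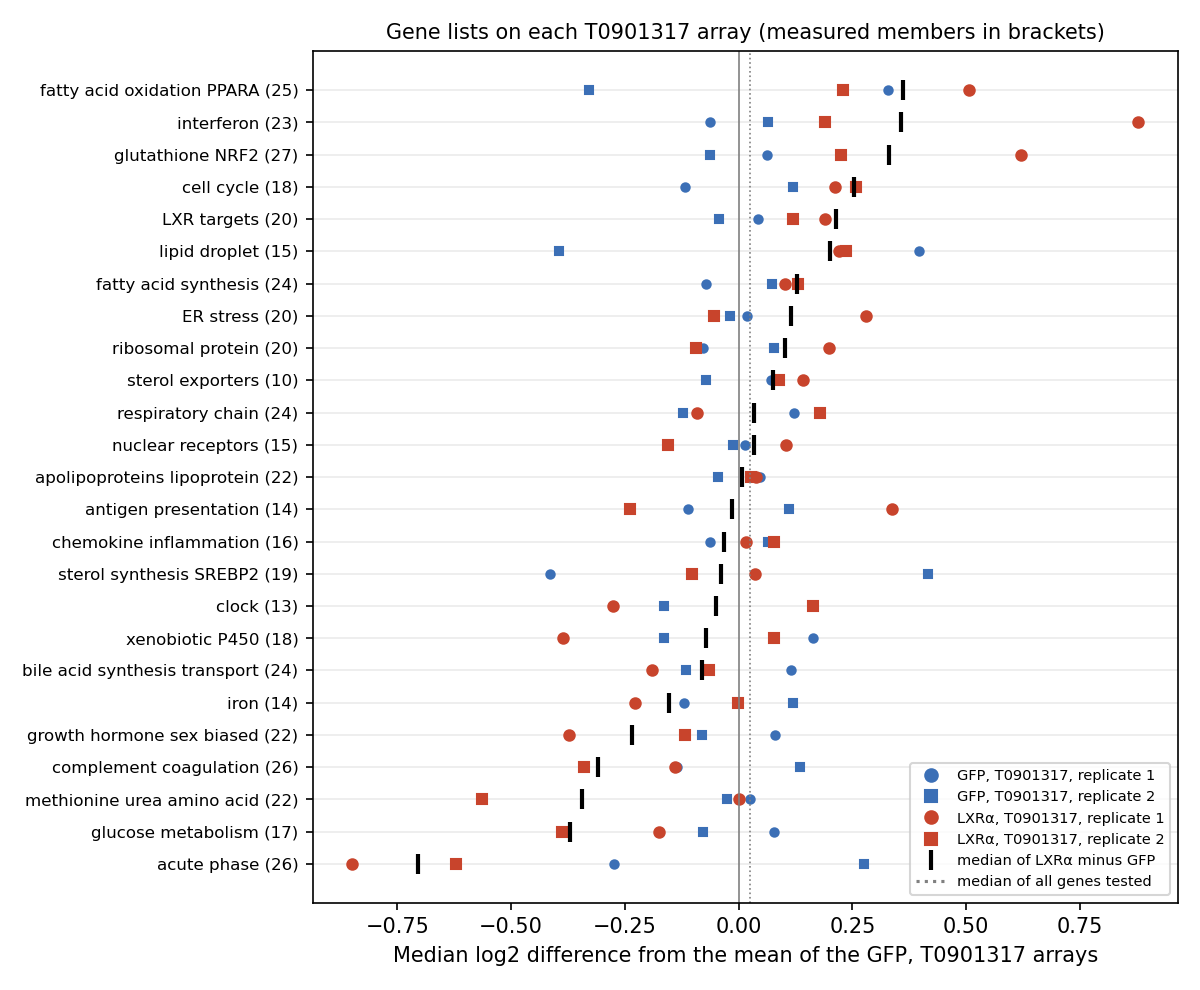
Median log2 difference of each gene list from the mean of the GFP T0901317 arrays, on each of the 4 T0901317 arrays, with measured members in brackets. Red points are LXRα arrays, blue points GFP arrays, black bars the median of LXRα minus GFP, and the dotted line the median of all genes; both red points of the acute-phase list (-0.85 and -0.62) lie below both blue ones.

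Acute-phase genes, the plasma proteins and regulators that hepatocytes make in inflammation, were lower in LXRα than in GFP livers under T0901317 as a list. Of 26 measured, 25 had a lower mean, 15 had groups that did not overlap on the lower side and 3 an unadjusted p under 0.05. The median log2 difference was -0.70. Relative to the mean of the GFP T0901317 arrays, the list's medians were -0.85 and -0.62 on the LXRα T0901317 arrays. On the GFP T0901317 arrays themselves they were -0.27 and 0.27. The GFP vehicle arrays gave -0.95 and -0.49, and the LXRα vehicle arrays -0.64 and 0.37. Both LXRα T0901317 arrays thus lay within the range of the GFP vehicle arrays, and both GFP T0901317 arrays above it. Lcn2, for example, read 535 and 993 in GFP vehicle livers. Lcn2, the siderophore-binding lipocalin 2, read 1541 and 2073 in GFP livers and 254 and 635 in LXRα livers, a log2 difference of -2.16 (SE 0.70, unadjusted p = 0.0179), or 4.45-fold lower. The LXRα arrays were separate from the GFP arrays and differed from each other by more than the GFP arrays did. Saa4, a constitutive serum amyloid A, read 1910 and 2142 against 524 and 1016 (-1.47, SE 0.52). Orm3, an orosomucoid, read 92.8 and 241 against 34.0 and 64.7 (-1.67, SE 0.67).

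The inducible serum amyloid genes had the widest spread. Saa2 read 8724 and 25535 in GFP livers and 1276 and 4733 in LXRα livers (-2.60, SE 1.17, unadjusted p = 0.0621). Saa1 read 11472 and 19195 against 1987 and 11835 (-1.61, SE 1.06), with LXRα replicate 2 inside the GFP range. These genes are close copies of each other, so their probes may share signal. Orm2, an orosomucoid, read 527 and 3115 against 172 and 312 (-2.47, SE 1.09), separate between groups but with GFP arrays that differed several-fold. Serpina3n, a protease inhibitor, read 1049 and 1420 against 525 and 535 (-1.20), and Mt2, a metallothionein, 3978 and 5236 against 1309 and 1901 (-1.53). The fibrinogen chains were lower by smaller amounts, with -0.56 for Fgb, -0.39 for Fgg and -0.29 for Fga. Haptoglobin (Hp, -0.20) and hemopexin (Hpx, 0.07) overlapped, as did the regulator Stat3 (-0.04 on its brightest probe set and -1.03, without overlap, on another), while its feedback inhibitor Socs3 read 75.8 and 497 against 86.7 and 101.

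GFP T0901317 replicate 2 was the highest of the 4 arrays for Lcn2, Saa2, Orm2 and Socs3, and the list's values varied with it. Without it the median was -0.35, 22 of 26 were lower and none had an unadjusted p under 0.05; without GFP T0901317 replicate 1 the median was -1.05 with 24 of 26 lower. Without LXRα T0901317 replicate 1 it was -0.62 with 26 of 26 lower, and without replicate 2 it was -0.85 with 23 of 26. GFP T0901317 replicate 2 also carried the muscle and Marco signal, and its summed macrophage marker intensity was 21436, against 12620 on the other GFP T0901317 array and 15233 and 14270 on the LXRα T0901317 arrays. The part of these cells in the acute-phase values was not tested.

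**Figure D3:**
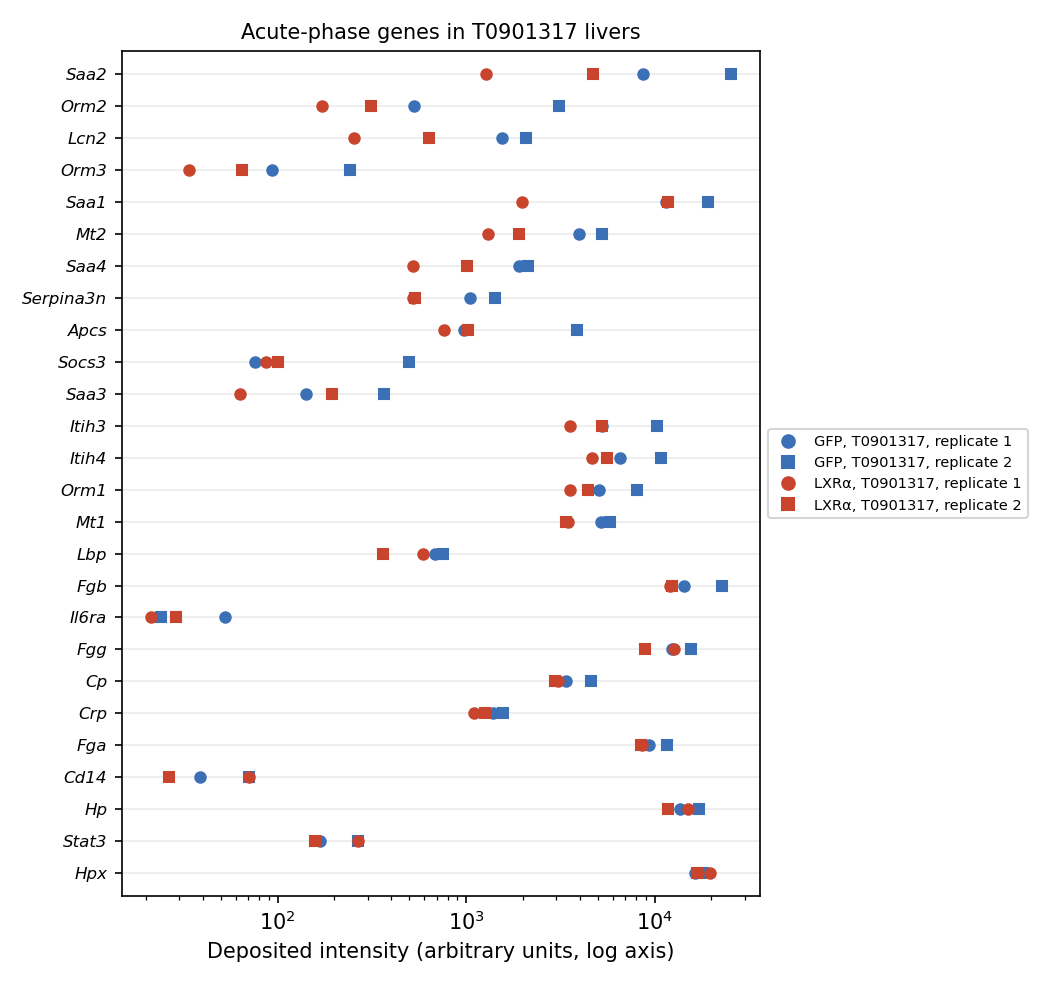
Deposited intensity (arbitrary units, log axis) of the 26 measured acute-phase genes on the 4 T0901317 arrays, blue for GFP and red for LXRα, with circles for replicate 1 and squares for replicate 2. Red points lie left of the blue ones for 15 genes, such as Lcn2 (254 and 635 against 1541 and 2073), and GFP replicate 2 is the rightmost point for Lcn2, Saa2 and Orm2.

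Complement and coagulation factors, made by hepatocytes as well, were lower for 23 of 26 measured genes, with a median of -0.31, 9 separate on the lower side and 1 at an unadjusted p under 0.05. That gene was Hrg, the histidine-rich glycoprotein, with 4404 and 6469 in GFP livers and 2410 and 3898 in LXRα livers (-0.80, SE 0.32, unadjusted p = 0.0402). Serpinf2, the plasmin inhibitor, differed by -0.76, coagulation factor F7 by -0.63 and F5 by -0.52, each with separate groups. Serpinc1, antithrombin, went the other way with 0.28. The 3 genes of C1q, which macrophages make, had differences of -0.19 (C1qa), -0.05 (C1qb) and 0.35 (C1qc). Without LXRα T0901317 replicate 2 the list held 15 lower and 11 higher genes, with a median of -0.14, and without GFP T0901317 replicate 2 it held 18 and 8, with a median of -0.13.

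Genes of glucose and amino acid metabolism leaned lower too. In glucose metabolism 13 of 17 genes were lower, with a median of -0.37, 5 with separate groups and 2 at an unadjusted p under 0.05. Without LXRα T0901317 replicate 2 the median was -0.17. Ppargc1a, the PGC-1α coactivator of gluconeogenesis, read 55.7 and 66.8 against 40.7 and 14.9 (-1.31, SE 0.45) on its brightest probe set, while its other probe sets gave -0.30, 0.17 and -0.41. Fbp1, fructose-1,6-bisphosphatase, read 6071 and 6486 against 4431 and 4376 (-0.51, SE 0.19, unadjusted p = 0.0321), with replicates close together in both groups. Pck1, the first committed enzyme of gluconeogenesis, read 4650 and 5698 against 6289 and 2453, with LXRα arrays on either side of the GFP arrays.

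Of 22 enzymes of methionine, urea and amino acid metabolism, 18 were lower, with a median of -0.34 and 6 with separate groups. Oat, ornithine aminotransferase, read 2753 and 4743 against 1867 and 1695 (-1.02, SE 0.33, unadjusted p = 0.0175). Nnmt, which methylates nicotinamide, read 572 and 1319 against 303 and 128 (-2.14, SE 0.89, unadjusted p = 0.0472). Both LXRα arrays lay below both GFP arrays for these and for Hal, histidine ammonia-lyase (-0.76). The urea cycle enzymes differed little, with -0.11 for Cps1, -0.20 for Otc, -0.17 for Asl and 0.01 for Arg1. The list's value depended on LXRα T0901317 replicate 2, the array with the highest 3'/5' ratios of β-actin and Gapdh. Without that array 11 genes were lower and 11 higher and the median was 0.00 to 2 decimals, and without replicate 1 it was -0.56.

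Among bile acid genes 16 of 24 were lower, 7 of them with separate groups, and the median was -0.08, or -0.19 without GFP T0901317 replicate 2 or LXRα T0901317 replicate 2. Abcb11, the bile salt export pump of the canaliculus, read 1211 and 1588 against 800 and 869 (-0.73, SE 0.31, unadjusted p = 0.048). Slc10a1, the uptake transporter NTCP, read 3481 and 3289 against 1515 and 2747 (-0.73), and Abcc2 read 1339 and 1473 against 839 and 971 (-0.64). These membrane transporters were lower on both LXRα arrays. Among synthesis genes Akr1d1, the steroid 5β-reductase, read 654 and 537 against 282 and 424 (-0.78), Cyp7b1 (-0.83) and Cyp2c70 (-0.39) had separate lower groups too, and Cyp27a1 (-0.08), Hsd3b7 (-0.07) and Cyp8b1 (-0.40) overlapped. Cyp2c37, a cytochrome P450 of arachidonate metabolism, read 1010 and 832 against 127 and 483 (-1.89, SE 0.68, unadjusted p = 0.0286). It was the single P450 list member of 18 with an unadjusted p under 0.05. Of 22 growth hormone dependent and sex-biased genes 13 were lower, 6 with separate groups, with a median of -0.23 that was -0.37 without LXRα T0901317 replicate 2 and -0.12 without replicate 1. The pregnane X receptor target Cyp3a11 read 5097 and 4158 against 5536 and 6953 (0.43, SE 0.85). Lrp1, an endocytic receptor for remnant lipoproteins, read 880 and 1519 against 523 and 662 (-0.97, unadjusted p = 0.02).

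Lipid storage genes were on the higher side. Plin2, the coat protein of the lipid droplet, read 4499 and 4353 in GFP livers and 10184 and 7768 in LXRα livers, a log2 difference of 1.01 (SE 0.38, unadjusted p = 0.0344), or 2.01-fold. Replicates were close and the groups separate. Cidec, which enlarges droplets, read 168 and 38.0 against 326 and 178 (1.59, SE 0.76), with LXRα replicate 2 just above the higher GFP array, and its relative Cidea overlapped (87.5 and 20.8 against 6.01 and 52.3). Of 15 lipid droplet genes 14 were higher, 3 with separate groups, and the median was 0.20. Without GFP T0901317 replicate 2, 6 were higher and 9 lower (median -0.07), and without GFP T0901317 replicate 1 the median was 0.70, so the value depended on which GFP array was taken as the control.

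Targets of PPARα, the receptor that drives fatty acid oxidation, were higher for 22 of 25 genes, 5 with separate groups and none at an unadjusted p under 0.05, with a median of 0.36. Cyp4a12a, an omega-hydroxylase of male liver, read 855 and 447 against 1215 and 1542 (1.15, SE 0.55). Acot1, a cytosolic acyl-CoA thioesterase, read 723 and 121 against 1953 and 543 (1.80, SE 1.06), with overlap. Pdk4, which spares glucose, read 44.3 and 69.7 against 299 and 65.5 (1.33, SE 0.64) and was high on LXRα replicate 1 only. The rate-limiting carnitine transferase Cpt1a differed by 0.31 and Acadvl by 0.02. Here as well the GFP arrays set the value: the median was 0.72 without GFP T0901317 replicate 1 and 0.03 without replicate 2, where 14 genes were higher and 11 lower. Without LXRα T0901317 replicate 1 it was 0.23.

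Of 27 glutathione and NRF2 genes, which detoxify electrophiles, 22 were higher and 12 had separate groups on the higher side, with a median of 0.33 and none at an unadjusted p under 0.05. Gstm3, a glutathione transferase, read 1177 and 810 against 5336 and 1951 (1.72, SE 0.74, unadjusted p = 0.0522), and its dimmer probe set gave 2.44 (unadjusted p = 0.0376). Gpx1, the main glutathione peroxidase of liver, read 7698 and 7133 against 9192 and 9454 (0.33, SE 0.17). Gsta4 differed by 1.09, Mgst3 by 0.85 and Gstm1 by 0.56, each with separate groups. The transferases of one class are similar in sequence and may share probe signal. The NRF2 targets Nqo1 (0.25), Gclc (0.31) and Hmox1 (0.29) overlapped. The list's median kept its sign without any 1 of the T0901317 arrays, from 0.22 without LXRα replicate 1 to 0.62 without LXRα replicate 2.

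Interferon-response genes were higher for 20 of 23, 10 with separate groups and 2 at an unadjusted p under 0.05, with a median of 0.36. Ifit1 read 33.4 and 15.7 against 94.7 and 51.9 (1.62, SE 0.67, unadjusted p = 0.0476). Mx1 was near the floor on all arrays (8.31 and 9.86 against 14.6 and 11.02). Usp18, which damps interferon signalling, read 72.7 and 32.6 against 291 and 74.6 (1.60), and Oas1a 121 and 109 against 347 and 142 (0.95). LXRα replicate 1 was the highest T0901317 array for each of these 4 genes. It also read 3332 for the immunoglobulin gene Ighm, against 600 and 620 in GFP livers and 320 on LXRα replicate 2, and its part in the interferon values was not tested. Without that array the list's median was 0.19, with 15 genes higher and 8 lower, and without LXRα T0901317 replicate 2 it was 0.88.

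Ccnd1, the cyclin D1 of the G1 phase, read 165 and 322 in GFP livers and 671 and 693 in LXRα livers, a log2 difference of 1.56 (SE 0.47, unadjusted p = 0.013). Its other probe sets gave 0.96 and 1.50, and the LXRα arrays lay above the GFP arrays on all of them. Of 18 measured cell cycle genes 17 were higher, 8 with separate groups, but most were dim: the mitotic marker Mki67 read 9.50 and 17.6 against 11.9 and 11.5, and Cdk1 12.2 and 16.9 against 17.7 and 19.6. The replication gene Pcna, which was brighter, differed by 0.07 with overlap. The list's median was 0.25, and lay between 0.15 (without GFP T0901317 replicate 1) and 0.29 when any 1 of the T0901317 arrays was left out.

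**Figure D4:**
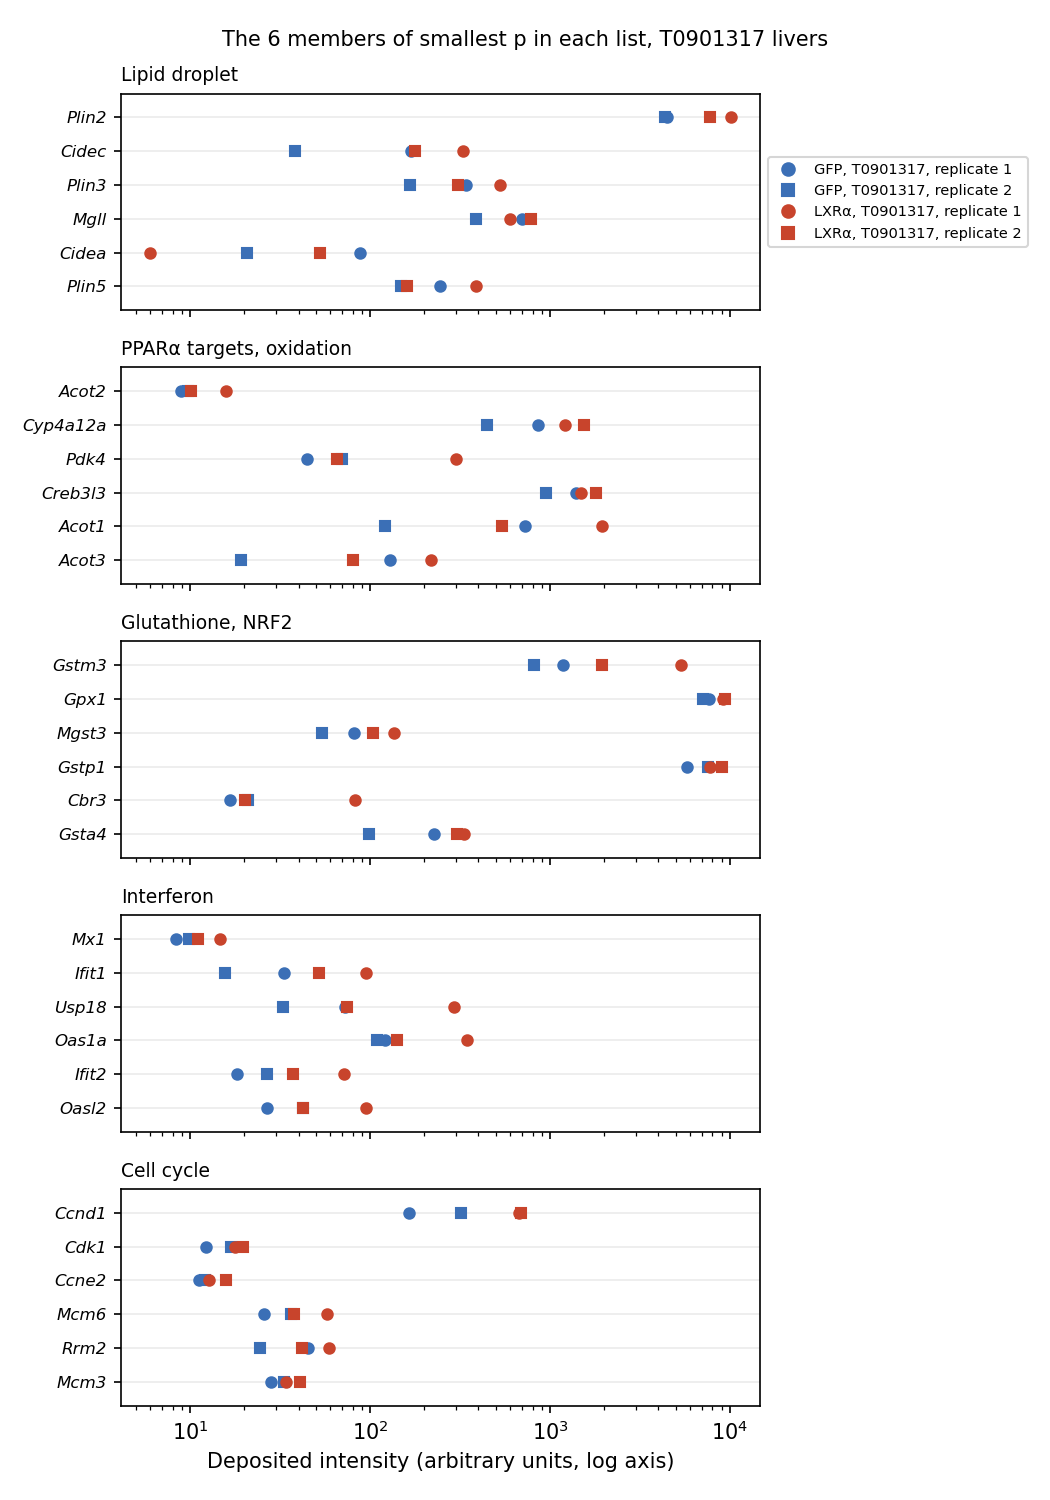
Deposited intensity (arbitrary units, log axis) on the 4 T0901317 arrays of the 6 genes with the smallest unadjusted p in each of 5 lists with positive medians, blue for GFP and red for LXRα, with circles for replicate 1 and squares for replicate 2. Plin2 (10184 and 7768 against 4499 and 4353) and Ccnd1 (671 and 693 against 165 and 322) show separate groups with close LXRα replicates, while Pdk4 and Usp18 are far above the rest on LXRα replicate 1 alone.

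Several lists stayed within 0.2 of zero. Sterol synthesis genes, which SREBP-2 controls, had a median of -0.04 with 8 higher and 11 lower, which was -0.24 without GFP T0901317 replicate 1 and 0.44 without replicate 2. Medians were for lipoprotein genes 0.01 with 11 and 11, ER stress genes 0.11, clock genes -0.05, ribosomal protein genes 0.10 and respiratory chain genes 0.03. Hepatocyte markers had a median of -0.03, with Alb at 25237 and 19677 against 27420 and 25693. Macrophage markers had a median of -0.11 with 12 of 19 lower, which turned to 0.25 without GFP T0901317 replicate 2 and was -0.51 without replicate 1. Matrix and stellate cell markers had a median of 0.27 with 15 of 20 higher, or 0.10 without GFP T0901317 replicate 2, 0.49 without GFP T0901317 replicate 1 and 0.13 without LXRα T0901317 replicate 1. Col4a2, a basement membrane collagen, was separate between groups (133 and 93.2 against 152 and 176), and Col1a1 overlapped (79.8 and 29.4 against 60.6 and 80.4).

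The final comparison asked whether the transgene difference under agonist was the same as that under vehicle. The vehicle and T0901317 comparisons used different arrays. The pyruvate carboxylase 3'/5' ratio was higher on every T0901317 array than on any vehicle array, and its part in the interaction was not tested. Of 15838 probe sets 1 was called for the interaction, the T0901317 difference minus the vehicle difference, at an adjusted p under 0.05 (0.00631%), and 466 of 9359 genes had an unadjusted p under 0.05 for it (4.98%). The called probe set was that of Hsd3b5, a 3-keto-steroid reductase of male liver. It read 8.40 and 6.59 in GFP livers and 5.75 and 15.0 in LXRα livers under T0901317, near the floor on all 4 arrays. Under vehicle it read 8.10 and 6.82 with GFP and 846 and 1079 with LXRα. The interaction was -6.52 (SE 0.45, limma adjusted p = 0.0314). Since 3 of the groups lay at or near the floor, its size depends on how low values are treated (-5.23 with an offset in place of the floor). The call was lost under quantile normalization, a floor at the 5th percentile, no filter or the replicate block, and without GFP vehicle replicate 2, either GFP T0901317 array or either LXRα vehicle array.

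Across 9359 genes the transgene differences under T0901317 and under vehicle correlated at a Pearson r of -0.202, a description across genes, which are not independent replicates. The list medians had opposite signs for 20 of 32 lists, and lists can share members, as with Saa4. Some of these medians lay near 0 and changed sign when 1 T0901317 array was left out. Examples under T0901317 are sterol synthesis (-0.04), clock (-0.05), P450 (-0.07) and hepatocyte marker genes (-0.03). The share of all genes with opposite signs was not counted. Acute-phase genes had a vehicle median of 0.50 against -0.70 under T0901317, and 9 of 26 had an unadjusted interaction p under 0.05. Complement and coagulation genes had 0.52 against -0.31, with 11 of 26. Glutathione genes had -0.92 against 0.33, with 8 of 27, and lipid droplet genes -0.60 against 0.20, with 3 of 15. These vehicle medians depended on the LXRα vehicle arrays. Without replicate 2 they were -0.45 for glutathione and -0.06 for lipid droplet genes, and without replicate 1 they were -1.62 and -1.39. For complement and coagulation genes the vehicle median was 0.37 without replicate 2 and 0.66 without replicate 1. Some cell type marker lists had low vehicle medians too. For macrophage markers it was -1.22, all 19 lower, against -0.11 under T0901317, with 4 of 19 at an unadjusted interaction p under 0.05. Without LXRα vehicle replicate 2 the macrophage vehicle median was -0.50. The vehicle median was -0.73 for matrix and stellate markers, 19 of 20 lower, against 0.27, with 6 of 20. For cholangiocyte markers it was -0.65, all 6 lower, against 0.20, with 1 of 6. The other marker lists lay nearer 0 under vehicle: hepatocyte 0.35 against -0.03, endothelial -0.21 against -0.03, lymphocyte 0.10 against 0.12 and erythroid 0.03 against 0.02. The part of these cells in the list medians was not tested. The counts at an unadjusted interaction p under 0.05 moved widely when single arrays were left out, for these lists and over all genes. The acute-phase count fell furthest without LXRα vehicle replicate 2, where the vehicle median was 0.04. It fell too without GFP vehicle replicate 1, GFP T0901317 replicate 2 or LXRα T0901317 replicate 1. Without LXRα vehicle replicate 1 the acute-phase vehicle median was 0.84. Without GFP vehicle replicate 2, which held the pancreatic transcripts, the vehicle medians were 0.88 for acute-phase and 0.46 for complement and coagulation genes. For glutathione genes it was -0.76.

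Among genes with a small interaction p, some had opposed differences and others differed mainly under vehicle. Nnmt differed by 3.24 under vehicle and -2.14 under T0901317 (interaction, limma unadjusted p = 0.00374), and Gstm3 by -3.42 and 1.72 (0.00172). Slc22a7 read 64.3 and 53.2 in GFP and 279 and 784 in LXRα livers under vehicle, a log2 difference of 3.00, where T0901317 livers gave -2.38. Cyp2c70, the enzyme that makes muricholic acids, read 1701 and 1584 against 6320 and 5634 under vehicle and 4736 and 7267 against 4512 and 4463 under T0901317. The GFP livers were thus low without agonist and near the LXRα level with it. Ly6d, a surface protein of squamous and lymphoid cells, read 1051 and 476 against 18.2 and 22.6 under vehicle and 175 and 388 against 565 and 324 under T0901317. Its T0901317 groups overlapped (0.72, SE 0.53). Sprr1a, Nid1 and Pim3 were among the 8 genes with the smallest interaction p as well, with interactions of 4.01, 2.71 and -1.87.

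Among LXR targets 3 of 20 had an unadjusted interaction p under 0.05, a count that changed with single arrays left out. Cyp7a1 read 77.8 and 68.2 in GFP and 220 and 232 in LXRα livers under vehicle, a log2 difference of 1.63, where T0901317 livers gave -0.24 (interaction, limma unadjusted p = 0.00303). Abcg8 read 126 and 107 against 355 and 247 under vehicle (1.35) and gave 0.29 under T0901317 (0.0317). For both genes GFP livers without agonist were the low group, and the other groups lay higher. Pltp was different, with 3055 and 2888 against 1505 and 821 under vehicle (-1.42) and 0.32 under T0901317 (0.00562). No adjusted interaction p of these 3 genes was under 0.05.

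**Figure D5:**
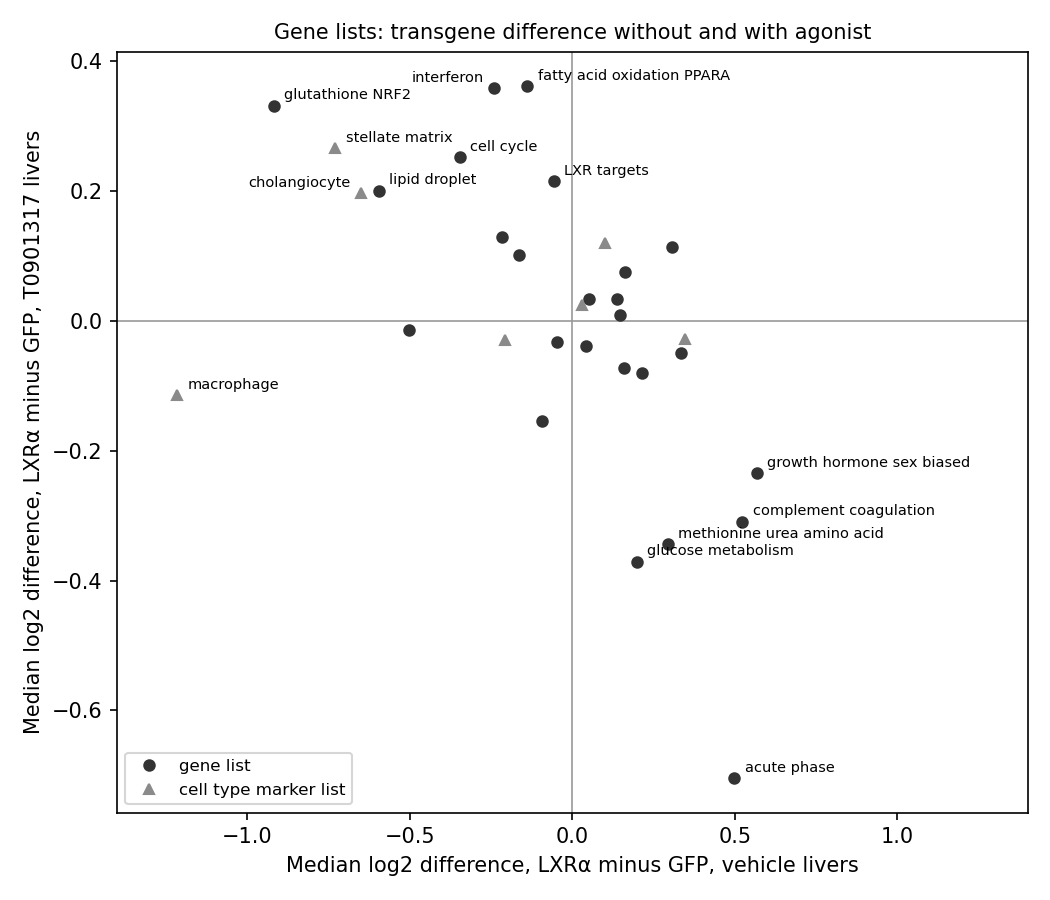
Median log2 difference between LXRα and GFP livers of 32 gene lists, under vehicle (horizontal axis) and under T0901317 (vertical axis); circles are pathway lists and triangles cell type marker lists. Acute-phase, complement and coagulation genes lie at lower right (0.50 and -0.70 for acute-phase genes) and glutathione genes at upper left (-0.92 and 0.33). Medians have opposite signs for 20 of the 32 lists, some of them near 0.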

How the data were processed

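Liver RNA of 8 mice was measured on Affymetrix mouse arrays, 1 array per sample, in 4 groups of 2 taken from the labels. The table deposited by the authors holds 1 intensity per probe set and array, on a linear scale as its values show. How probes were summarised and scaled was not given in the sources used here. Of 22690 probe sets, 64 were controls; of the other 22626, 20380 had 1 gene symbol in GEO's platform annotation, 691 several and 1555 none, and 20351 symbols were updated through RefSeq.

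Values under 7.50 (the 20th percentile) were set to that floor before log2 transformation; these log2 values derive from the deposited intensities, whose scaling was kept (array medians 4.39 to 4.53). Probe sets with a mean above the 30th percentile entered a limma fit (version 3.58.1, R 4.3.3): 15838 probe sets of 9359 genes; the fit had 4 group means (4 residual and 2.93 prior degrees of freedom, intensity trend), with Benjamini-Hochberg adjustment. All p-values come from limma, and unadjusted ones are so named. The number of arrays limits the precision. Each gene stands by the brightest of its tested probe sets that carry 1 symbol.

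Genes were named by rule: up to 12 genes of largest difference each way among those with an unadjusted p under 0.01 and separate groups, all measured LXR targets, receptor genes and Alb, up to 6 members of smallest p and members showing the range of a list, and 8 genes of smallest interaction p; other members of a list that the text names were chosen after their values were seen. Members, rule and the 32 lists (661 genes) were chosen with earlier results of these data known. The fit was tested on simulated data. Alternatives covered normalization, floor, filter, variance model, arrays used, replicate block, a term for the β-actin 3'/5' ratio and each array left out.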

Additional observations from a re-analysis of the deposited data

Results flagged for a closer look

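In the fit as reported, Hsd3b5 was the 1 gene whose transgene difference under T0901317 differed from that under vehicle by a test of the difference itself: the log2 interaction was -6.52 (limma adjusted p = 0.0314). LXRα vehicle livers read 846 and 1079, and the other 6 arrays lay between 5.75 and 15.0. Its size depends on the treatment of low values (-5.23 with an offset in place of the floor). The call was lost under quantile normalization, a floor at the 5th percentile, no filter or the replicate block, and without 5 of the 8 arrays when each was left out.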

How the results depend on the processing

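The count of called probe sets (0) was 1 without a filter on dim probe sets (Oas3), 1 with a β-actin ratio term (Afp), and 0 to 5 when single arrays were left out. The 5 came without GFP T0901317 replicate 1 and were Cxcl13, Acta1, Cyp2c55 and a pair for Myh1. Probe sets higher at an unadjusted p under 0.05 (137) numbered 231 without the filter, 84 with a filter at the 50th percentile, 75 with the 4 T0901317 arrays alone, 497 with that term, and 110 to 1048 with single arrays left out. Those lower (218) numbered 134 with the 4 arrays alone, 378 with that term and 163 to 676 with arrays left out. The largest of these counts came without LXRα T0901317 replicate 2 (higher) or replicate 1 (lower). Interaction calls (1) numbered 0 under quantile normalization, a floor at the 5th percentile or the replicate block, 8 without the filter, 2 without an intensity trend, 2 with that term, and 0 to 24 with arrays left out. The 24 came without GFP vehicle replicate 1 and were mostly pancreatic enzyme genes of the remaining GFP vehicle array. Replicate numbers were not shown to pair the samples, though the closest arrays across the T0901317 groups shared a replicate number. The replicate 1 minus replicate 2 differences correlated across probe sets at 0.247 between the T0901317 groups and -0.138 between the vehicle groups. The replicate block left 0 probe sets called for the T0901317 comparison. A fit without 1 array takes the spread of the lone array left in its group from the other groups. The causes of these shifts were not tested.

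Of 4247 gene values under alternatives, 71 changed sign, 70 of them on leaving out a T0901317 array. Among differences that exceeded their SE, leaving out single arrays gave log2 ranges that crossed 0 for Apoa4 -0.16 to 2.49, Cd3g -0.0030 to 0.22, Clock -0.83 to 0.063, Cox8a -0.046 to 1.21, Cxcl13 -1.26 to 0.062, Cyp2b10 -1.57 to 0.084, Elovl1 -0.25 to 1.47, Gzma -0.23 to 1.52, Hmgcs1 -1.03 to 0.17, Hsd3b5 -0.082 to 0.92, Il1b -1.73 to 0.26, Laptm5 -0.79 to 0.029, Lss -0.063 to 0.77, Mgll -0.033 to 0.81, Nkg7 -0.050 to 0.92, Rxra -1.02 to 0.10, Smad7 -1.13 to 0.012 and Tat -1.60 to 0.22.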
